A study of Mus musculus with 4 samples.

Results

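The aryl hydrocarbon receptor gene battery was examined in mouse ID8 ovarian cancer cells with and without knockdown of the deubiquitinase USP9X. The battery was taken by gene symbol as 9 of the 22063 genes in the table: the receptor Ahr, its partner Arnt, the repressors Ahrr and Tiparp, the cytochrome P450 genes Cyp1a1 and Cyp1b1, and the enzyme genes Nqo1, Aldh3a1 and Ugt1a6a. All 9 had a row in the table, and all 9 passed the low-count filter that left 11448 genes for testing. Cyp1a1 passed that filter only through the shUSP9X libraries. These genes were chosen by name with their differences between shUSP9X and shCtrl libraries already known. Their differences are therefore given as a description, with no p-value.

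The aryl hydrocarbon receptor is a ligand-activated transcription factor that is held in the cytosol by a chaperone complex. On binding dioxins, polycyclic aromatic hydrocarbons or tryptophan metabolites it enters the nucleus, pairs with ARNT and binds xenobiotic response elements upstream of genes for drug-metabolizing enzymes. Cyp1a1 is its best known target, and Ahrr and Tiparp are targets whose products restrain the receptor. Nqo1, Aldh3a1 and the UGT1 genes also answer to NRF2, the transcription factor of the oxidative stress response.

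ID8 is an established mouse ovarian cancer cell line. Poly(A) RNA was sequenced from ID8 cells carrying a control shRNA (shCtrl, genotype labelled WT, 2 libraries) or an shRNA against USP9X (shUSP9X, USP9X knockdown, 2 libraries), with shRNAs delivered by lentivirus. The sources used here do not say which of the designed shRNAs the cells carried, whether the cells were given TGF-β1 or low oxygen, whether the libraries came from separate cultures, or whether reads were counted by strand. The p-values given below therefore measure only the spread between these libraries, which may be technical, and cannot separate an effect of USP9X from one of the shRNA itself. The libraries held 17232006 and 15611363 estimated counts for shCtrl cells, and 19978889 and 17021261 for shUSP9X cells.

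Promoters of the battery were searched for the sequence elements that the receptor and NRF2 are known to bind. Of the 9 genes, 7 had a promoter entry in RefSeq (GRCm38.p6), a window of 300 bases from 250 before to 50 after the start of transcription, and Ahr and Aldh3a1 had none. The xenobiotic response element core GCGTG, searched on both strands (CACGC on the other), was found in 5 of the 7 windows and in 32.4% of 32851 promoters of the same length. The longer form TNGCGTG, which contains the core, was found in 1 of the 7 windows, that of Ahrr, and in 5.07% of all promoters. The antioxidant response element core TGACNNNGC was found in 1 of the 7 windows, that of Arnt, and in 12.4% of all promoters. The windows of 4 genes are printed because they belong to the P450 genes, the repressor and the NADPH quinone reductase that the values below turn on. Capitals mark the GCGTG core in either orientation, and each sequence runs 5′ to 3′ along its gene. The Cyp1a1 window lies at chr9:57697363-57697662 on the plus strand, with its core at position -54 from the start of transcription.
Cyp1a1: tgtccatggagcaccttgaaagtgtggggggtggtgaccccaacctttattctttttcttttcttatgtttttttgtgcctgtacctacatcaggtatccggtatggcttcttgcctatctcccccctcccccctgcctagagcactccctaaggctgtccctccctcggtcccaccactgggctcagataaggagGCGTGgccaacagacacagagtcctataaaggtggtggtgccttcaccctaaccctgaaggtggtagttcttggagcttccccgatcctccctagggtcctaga
The Ahrr window, at chr13:74292282-74292581 on the minus strand, holds 3 cores at positions -107, -82 and -27 from the start of transcription, and the last of them belongs to the longer form.
Ahrr: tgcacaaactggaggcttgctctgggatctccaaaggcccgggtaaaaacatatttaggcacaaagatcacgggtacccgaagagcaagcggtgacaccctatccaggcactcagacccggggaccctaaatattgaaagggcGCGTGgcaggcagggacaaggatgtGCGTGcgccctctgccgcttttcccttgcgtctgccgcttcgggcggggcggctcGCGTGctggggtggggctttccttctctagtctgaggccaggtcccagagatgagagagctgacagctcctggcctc
The Cyp1b1 window, at chr17:79715012-79715311 on the minus strand, holds 1 core in the opposite orientation, at position -76.
Cyp1b1: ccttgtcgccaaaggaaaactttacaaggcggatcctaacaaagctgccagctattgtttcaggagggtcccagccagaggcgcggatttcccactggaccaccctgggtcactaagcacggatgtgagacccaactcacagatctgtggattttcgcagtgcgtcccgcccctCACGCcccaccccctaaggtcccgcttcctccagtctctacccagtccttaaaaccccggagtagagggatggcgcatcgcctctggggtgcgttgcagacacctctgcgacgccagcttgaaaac
The Nqo1 window, at chr8:107403156-107403455 on the minus strand, holds neither core.
Nqo1: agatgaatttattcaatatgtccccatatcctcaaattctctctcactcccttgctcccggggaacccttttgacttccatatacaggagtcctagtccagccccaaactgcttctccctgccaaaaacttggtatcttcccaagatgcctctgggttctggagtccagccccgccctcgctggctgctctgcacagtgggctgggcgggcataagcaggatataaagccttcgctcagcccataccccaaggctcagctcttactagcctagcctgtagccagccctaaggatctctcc
Of the windows not printed, those of Arnt and Tiparp each hold 1 GCGTG core, and that of Ugt1a6a holds none of the 3 motifs. A match is a description of letters, and its absence from a window says nothing of elements farther away.

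Before the battery was read, the libraries were checked against their labels. Usp9x (ENSMUSG00000031010, chrX:13071498-13173328) had counts of 5169 and 4453 in the shCtrl libraries and 390 and 346 in the shUSP9X libraries. Its normalized level fell from 290 ± 11.6 to 20.1 ± 0.570 CPM (counts scaled to a common library size, mean ± SD, n = 2), a log2 fold change of -3.85 ± 0.06 (standard error), or -2.09 once the trend on GC content and transcript length described below was removed. Markers of ovarian surface epithelium and mesothelium summed to 2565, 2597, 3017 and 2967 CPM in shCtrl replicates 1 and 2 and shUSP9X replicates 1 and 2, with Krt19 the most abundant, and Krt7 was at or below 3 counts in every library.

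The library shUSP9X replicate 2 stood apart by liver transcripts. The hepatocyte markers Alb, Ttr, Apoa1, Apob, Cps1 and Cyp7a1 summed to 7, 0, 4 and 730 counts in the same library order, of which Alb gave 635, and Cyp7a1, the rate-limiting enzyme of bile acid synthesis, was at 0 throughout. In that library 31 genes had at least 10 counts while none of the other libraries had more than 1, and these 31 genes made up 0.00838% of its counts. The liver P450 genes were low even there, at 10 counts for Cyp2e1, 9 for Cyp3a11 and 2 for Cyp1a2. Values of the battery without this library are given with each group of genes below.

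Of 8 leukocyte markers, 4 were above the floor of 3 counts in both shUSP9X libraries and at 0 in both shCtrl libraries. All 8 summed to 4.27 and 4.30 CPM in the shCtrl libraries and 14.9 and 15.0 CPM in the shUSP9X libraries, and the most abundant, the lysosomal protein gene Cd68, had 74 and 68 against 118 and 85 counts and was not called (log2 fold change 0.37, edgeR adjusted p = 0.125). Adgre1 had counts of 0 and 0 against 58 and 59, Itgam 0 and 0 against 72 and 75, Ptprc 0 and 0 against 29 and 18, and Csf1r 0 and 0 against 17 and 13. Cd3e was at 0 in every library, and Lyz2 had 2 counts in shUSP9X replicate 2 alone. In bulk RNA, more cells of a type and more RNA per cell cannot be told apart. The part of these transcripts in the battery's values was not tested.

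Among all genes tested, shUSP9X cells showed 33.8% higher and 33.6% lower by the edgeR quasi-likelihood test (Benjamini-Hochberg adjusted p below 0.05). With the cutoff in the study's methods (fold change over 1.5 and p below 0.05 without adjustment) the shares were 10.8% higher and 18.7% lower. In 6 of the 9 battery genes both shUSP9X libraries lay above both shCtrl libraries, in 2 both lay below (Cyp1b1 and Tiparp, the latter turning to 0.04 on the log2 scale once the trend described below was removed), and in Arnt the groups overlapped. The shares over all genes count calls, and the share of all genes whose groups do not overlap is not given here. The battery genes were also chosen with these differences known, so nothing is read from those counts or from the median that follows. The median log2 fold change of the 9 genes was 1.11, beside -0.000513 over all genes tested, and 1.07 beside 0.07 with that trend removed.

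**Figure D1:**
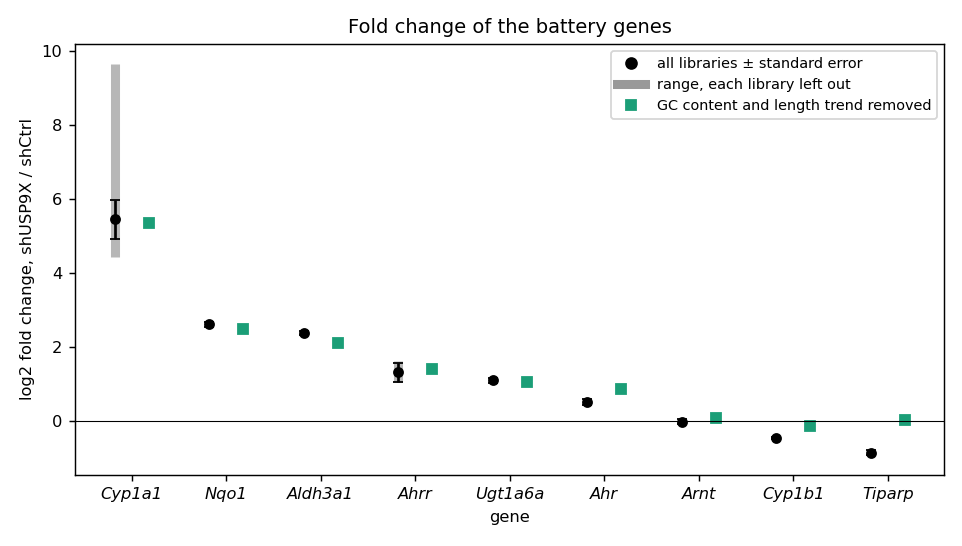
Log2 fold change (shUSP9X over shCtrl) of the 9 battery genes, ordered by size, with black points and bars for the edgeR estimate and its standard error over 2 libraries against 2, grey bars for the range with each library left out in turn, and green squares for the estimate after removal of the trend on GC content and length. Cyp1a1, Nqo1 and Aldh3a1 stood highest, and Tiparp moved from -0.85 to 0.04 when the trend was removed. The upper end of the grey bar of Cyp1a1 rests on a control library without any count and is no bound.

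The receptor gene itself differed modestly between the groups. Ahr (ENSMUSG00000019256, chr12:35497974-35535038, minus strand) had counts of 715 and 626 in the shCtrl libraries and 1103 and 1015 in the shUSP9X libraries. Its level was 40.4 ± 1.16 CPM in shCtrl and 58.0 ± 3.14 CPM in shUSP9X cells (n = 2 each), a log2 fold change of 0.52 ± 0.07, or 1.43-fold, and both shUSP9X libraries lay above both shCtrl libraries. With the trend removed the log2 fold change was 0.87.

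Arnt, whose product is the obligate DNA-binding partner of the receptor and of the hypoxia-inducible factors, overlapped between the groups. Arnt (ENSMUSG00000015522, chr3:95434388-95497240, plus strand) had counts of 1072 and 1062 against 1293 and 1056, or 64.5 ± 3.78 CPM in shCtrl and 64.0 ± 1.94 CPM in shUSP9X cells. The log2 fold change was -0.01 ± 0.06, and 0.09 with the trend removed.

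The genes whose products restrain the receptor lay in opposite directions, but for Tiparp only as long as the trend on GC content and length was kept. Ahrr, which competes with the receptor for ARNT, had few counts (ENSMUSG00000021575, chr13:74211118-74292331, minus strand). It had 32 and 43 counts in the shCtrl libraries and 108 and 99 in the shUSP9X libraries, or 2.28 ± 0.618 and 5.67 ± 0.291 CPM. The groups did not overlap, and the log2 fold change was 1.32 ± 0.25, or 1.42 with the trend removed.

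Tiparp encodes a mono-ADP-ribosyltransferase that modifies the receptor and promotes its degradation. Tiparp (ENSMUSG00000034640, chr3:65528410-65555518, plus strand) had counts of 1172 and 971 in the shCtrl libraries and 692 and 622 in the shUSP9X libraries. Its level was 64.5 ± 4.37 CPM in shCtrl and 36.0 ± 1.35 CPM in shUSP9X cells, both shUSP9X libraries below both shCtrl libraries. The log2 fold change of -0.85 ± 0.07, or 1.80-fold lower, became 0.04 when the trend on GC content and length was removed, so its direction depended on that choice. Without shUSP9X replicate 2 the log2 fold changes were 0.46 for Ahr, 0.02 for Arnt, 1.27 for Ahrr and -0.88 for Tiparp.

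Among the P450 genes, Cyp1a1 was near the limit of detection in shCtrl cells and low in shUSP9X cells. Cyp1a1 (ENSMUSG00000032315, chr9:57687928-57703824, plus strand) encodes the monooxygenase that hydroxylates polycyclic aromatic hydrocarbons. It had counts of 0 and 4 in the shCtrl libraries and 89 and 114 in the shUSP9X libraries, or 0.126 ± 0.179 and 5.63 ± 1.60 CPM. Both shUSP9X libraries lay far above both shCtrl libraries, and the fitted log2 fold change was 5.45 ± 0.52, or 5.35 with the trend removed. The summed counts, 203 against 4, gave a ratio of 46.0 after scaling for library size, which rests on the 4 control counts of a single library. The fitted log2 fold change was 4.43 without shCtrl replicate 1 and 9.65 without shCtrl replicate 2, where the remaining control is at 0 and the value is no bound. Without shUSP9X replicate 2 the ratio of summed counts was 37.3. Of the 50-base windows of its transcript, 3.55% also occur in Cyp1a2, its nearest paralog, which had counts of 0, 0, 0 and 2.

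Cyp1b1, the extrahepatic P450 of steroid and hydrocarbon metabolism, was the most abundant gene of the battery and lay lower in shUSP9X cells. Cyp1b1 (ENSMUSG00000024087, chr17:79701537-79715061, minus strand) had counts of 18484 and 16458 in the shCtrl libraries and 14955 and 13299 in the shUSP9X libraries. Its level was 1053 ± 17.7 CPM in shCtrl and 773 ± 23.2 CPM in shUSP9X cells, a log2 fold change of -0.45 ± 0.03, or 1.36-fold lower, and the groups did not overlap. With the trend removed the log2 fold change was -0.14. Without shUSP9X replicate 2 it was -0.48 for Cyp1b1 and 5.14 for Cyp1a1.

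The enzymes that detoxify quinones, aldehydes and phenols were higher in shUSP9X cells. Nqo1, the NAD(P)H quinone reductase (ENSMUSG00000003849, chr8:107388225-107403206, minus strand), had counts of 444 and 422 in the shCtrl libraries and 3221 and 2634 in the shUSP9X libraries. The level was 26.1 ± 0.767 CPM in shCtrl and 160 ± 4.68 CPM in shUSP9X cells, a log2 fold change of 2.61 ± 0.06 or 6.11-fold. Aldh3a1, an NADP-dependent dehydrogenase of aromatic and lipid-derived aldehydes that is abundant in cornea (ENSMUSG00000019102, chr11:61207537-61218421, plus strand), had counts of 463 and 393 against 2657 and 2268. The level was 25.8 ± 1.3 CPM in shCtrl and 135 ± 0.135 CPM in shUSP9X cells, a log2 fold change of 2.38 ± 0.06 or 5.21-fold. For both genes the groups were far apart compared with the spread within them, and the log2 fold changes were 2.50 and 2.12 with the trend removed. Beside Aldh3a1, the cornea and keratinocyte markers summed to 29.7, 26.4, 51.9 and 46.3 CPM, nearly all of it Krt14, and Krt12, the corneal keratin, was at 0 in every library.

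Ugt1a6a, a UDP-glucuronosyltransferase of planar phenols, shares its sequence with its neighbours at the UGT1 locus and is uncertain as a single gene. Ugt1a6a (ENSMUSG00000054545, chr1:88134809-88218997, plus strand) had estimated counts of 548.05 and 541.62 in the shCtrl libraries and 1355.91 and 1237.77 in the shUSP9X libraries. Its level was 32.9 ± 1.89 CPM in shCtrl and 71.0 ± 3.45 CPM in shUSP9X cells, a log2 fold change of 1.11 ± 0.07 or 2.16-fold, and 1.07 with the trend removed. All of the 50-base windows of its transcript (100%) also occur in other UGT1 genes. Of these, Ugt1a6b had estimated counts of 29.52 and 41.69 against 135.42 and 82.09, and Ugt1a7c, in which all of the windows occur, had 15.07 and 9.69 against 1.53 and 9.76. The 9 UGT1 genes summed to 34.3 and 37.6 CPM in the shCtrl libraries and 75.6 and 79.2 CPM in the shUSP9X libraries, which is 2.16-fold, so the sum over the locus, which does not depend on how reads were split, differed as much as Ugt1a6a alone. Without shUSP9X replicate 2 the log2 fold changes were 2.64 for Nqo1, 2.38 for Aldh3a1 and 1.06 for Ugt1a6a.

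Levels were compared between genes on the FPKM scale, which divides by transcript length. In the shCtrl libraries Cyp1b1 stood highest at 213 and 209 FPKM, and its 2 values made up 70.7% and 69.8% of the summed FPKM of the battery. Arnt followed at 17.9 and 20.02 FPKM, then Nqo1 at 16.6 and 17.4, Tiparp at 16.2 and 15.5, Aldh3a1 at 15.6 and 14.6 and Ugt1a6a at 13.8 and 15.1. In that order Tiparp overlapped with Aldh3a1 and Aldh3a1 with Ugt1a6a. Ahr lay below them at 7.48 and 7.23 FPKM, and Ahrr at 0.458 and 0.579 and Cyp1a1 at 0 and 0.098 were the lowest.

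The order was different in the shUSP9X libraries. Cyp1b1 remained highest at 150 and 156 FPKM, but its share of the battery was 37.3% and 38.4%. Nqo1 came next at 104 and 99.6 FPKM, followed by Aldh3a1 at 77.2 and 77.4 and Ugt1a6a at 30.5 and 31.7. Arnt at 19.1 and 18.7, Ahr at 9.95 and 10.7 and Tiparp at 8.27 and 8.72 lay in the middle. Cyp1a1 at 1.70 and 2.56 FPKM was now above Ahrr at 1.14 and 1.22, and no neighbours in this order overlapped. The summed FPKM of the 9 genes was 301 and 300 in shCtrl and 402 and 407 in shUSP9X libraries, and without Cyp1b1 it was 88.1 and 90.6 against 252 and 251. The length that the deposited FPKM imply was not the same in every library for some genes. It was 5548 bases in all libraries for Ahr and 1553 for Nqo1, but for Ahrr 4055 in shCtrl replicate 1 and 4757 in shCtrl replicate 2.

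**Figure D2:**
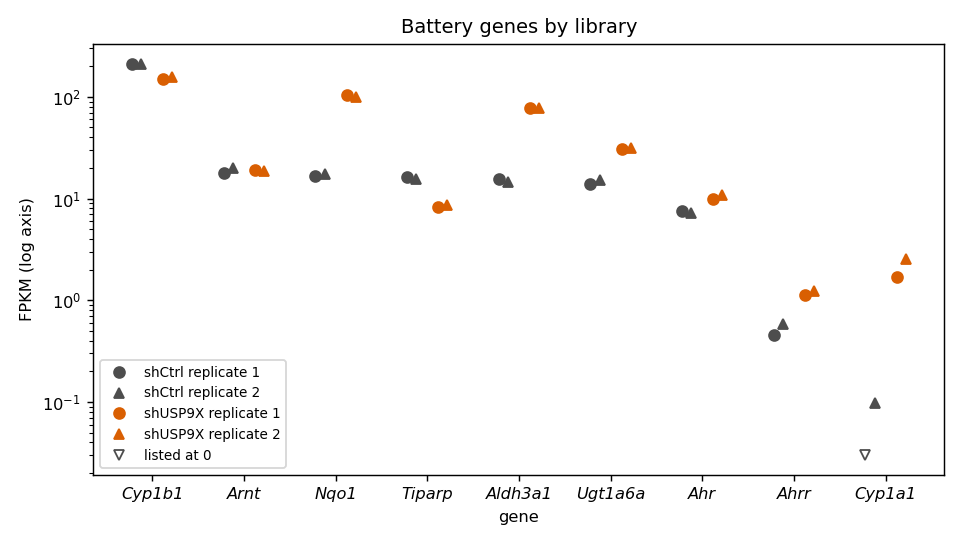
FPKM (log axis) of the 9 battery genes in each of the 4 libraries, ordered by the shCtrl level, with grey symbols for shCtrl and orange for shUSP9X, circles for replicate 1 and triangles for replicate 2, and an open triangle for the library where Cyp1a1 is listed at 0. Cyp1b1 lies highest in both groups, Nqo1 and Aldh3a1 lie between 14.6 and 17.4 FPKM in shCtrl and between 77.2 and 104 FPKM in shUSP9X libraries, and Arnt lies in the same range in all 4.

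The log2 fold changes of all genes followed the base composition of their transcripts. Over the genes with a known transcript, the log2 fold change correlated with GC content at a Spearman rho of 0.447 and with transcript length at -0.331, across genes that share the same 4 libraries. When the genes were cut into 10 groups of 1143 by GC content, the median was -0.88 in the group below 41.7% GC and 0.25 in both groups between 53.9% and 58.2%. Tiparp, at 40.4% GC and a log2 fold change of -0.85, belonged to the group with the median of -0.88. Ahr at 46.2%, Cyp1b1 at 46.1% and Nqo1 at 46.7% lay below the middle, and Aldh3a1 at 53.3% had the highest GC content of the battery. Removing the trend in each library moved the share of higher genes among those past the fold cutoff from 36.5% to 52.6%. What produced the trend was not tested.

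**Figure D3:**
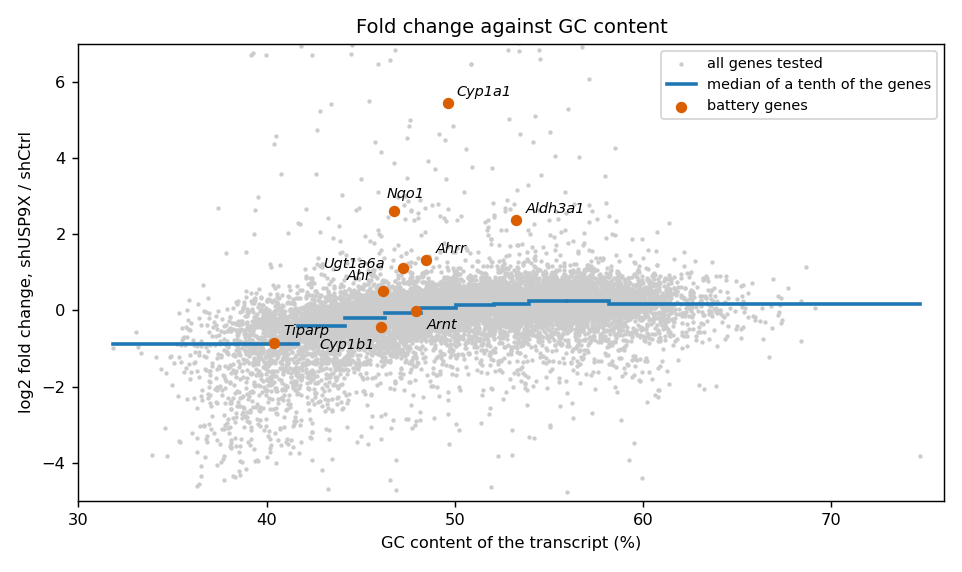
Log2 fold change (shUSP9X over shCtrl) against the GC content of the transcript for all genes tested (grey points), with the median of each of 10 equal groups of genes by GC content (blue line) and the battery genes in orange. The axis leaves out 28 genes below -5 or above 7. Tiparp lies on the blue line in the group with the lowest GC content, and Cyp1a1, Nqo1 and Aldh3a1 lie well above it.

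The other genes of the pathway were read from 9 lists of 118 genes in all, and the counts in each stand beside 33.8% of all genes tested higher and 33.6% lower. The proteins that hold the receptor in the cytosol or take part in its turnover were 10 genes, all tested, of which 8 were higher and 2 lower, beside 33.8% and 33.6% of all genes (median log2 fold change 0.33). The chaperone genes moved apart. Hsp90aa1, the inducible HSP90 isoform, fell from 1545 ± 60.9 to 389 ± 1.87 CPM (log2 fold change -1.99 ± 0.03, edgeR adjusted p = 3.1e-25), whereas the constitutive Hsp90ab1, named after its value was seen, rose by 0.50 on the log2 scale from 3759 ± 72.7 CPM. Tbl3 rose by 0.72 on the log2 scale. Cul4b, the scaffold of a ubiquitin ligase in which the receptor takes part, changed by -1.11 and by -0.41 with the trend removed.

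Of 16 basic helix-loop-helix PAS relatives of the receptor, 10 were tested, 2 were higher and 6 lower, with a median log2 fold change of -0.58 that was -0.22 with the trend removed. Epas1, which encodes HIF-2α and competes for the same partner ARNT, fell from 24.9 ± 1.24 to 8.15 ± 0.648 CPM (-1.61 ± 0.12 on the log2 scale, edgeR adjusted p = 7.3e-12), and had the same value with the trend removed. Arnt2, the paralog of Arnt, changed by -1.09 at counts of 43 and 63 against 29 and 26, but was not called by DESeq2 or without shCtrl replicate 2. Clock went from -1.24 to 0.32 when the trend was removed, and Per3 changed by -0.83 at low counts. Per1 of the circadian clock rose by 0.87, and Sim2 by 1.31 at counts of 6 and 8 against 26 and 13, a call kept in 6 of the 12 alternatives that gave Sim2 a value, and lost with the replicate block, with or without the GC content and length offset, with DESeq2, without the low-count filter, and without shCtrl replicate 1 or shUSP9X replicate 1. Per3 likewise lost its call by DESeq2 and without shCtrl replicate 1 or shUSP9X replicate 1.

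All 12 coactivators and corepressors were tested, with 4 higher and 7 lower and a median of -0.19, which became 0.48 with the trend removed. The falls of Ncoa7 (-1.24) and the corepressor Ncor1 (-0.81) became 0.10 and 0.05 with the trend removed, and that of Nrip1 (-1.06) became -0.18, none of them called then. Carm1, an arginine methyltransferase and coactivator, rose by 0.76, or 0.63 with the trend removed.

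Genes outside the battery that dioxin induces in some tissue were 23, of which 17 were tested, 11 higher and 5 lower, beside 33.8% and 33.6% of all genes (median 0.27). The glutathione transferase gene Gsta1 rose from 3.43 ± 0.117 to 99.7 ± 5.22 CPM, 4.86 ± 0.10 on the log2 scale (edgeR adjusted p = 1.3e-23), and Gsta2 by 3.02. These near-identical paralogs share reads, and their counts of 60.84 and 53.33 against 2043.01 and 1616.74 for Gsta1, and 6.10 and 12.67 against 92.34 and 80.35 for Gsta2, were split by estimation. Serpinb2, a serine protease inhibitor, rose by 2.01 (2.85 with the trend removed) from 20 and 7 to 73 and 48 counts. Selenbp1 fell by 3.06 at counts of 34 and 21 against 2 and 5. At these low counts the log2 fold change ranged over the alternatives that gave a value from 0.91 to 2.89 for Serpinb2, from 1.97 to 3.74 for Gsta2 and from -3.94 to -2.45 for Selenbp1, all of them called. Vegfa fell by 0.70, and the change of Cdkn1b, a cell cycle inhibitor, was -0.75 and -0.19 with the trend removed. Nfe2l2, which encodes NRF2, rose by 0.29 from 358 ± 2.89 to 439 ± 1.95 CPM, a gene named after its value was seen.

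The list that shares NRF2 regulation with Nqo1 and Aldh3a1 held 23 genes, all tested, of which 21 were higher, 1 was lower and 1 was neither, with a median log2 fold change of 0.86, or 0.80 with the trend removed. Its count stands beside a background of 33.8% higher, and the list was written with earlier results of these data known. The carbonyl reductase gene Cbr3 rose by 1.78 (counts of 123 and 146 against 536 and 485, edgeR adjusted p = 1.7e-12), the biliverdin reductase gene Blvrb by 1.58 and the glutathione transferase gene Gsta4 by 1.53. The smaller rises among the named genes were 0.85 for the peroxiredoxin gene Prdx1, 0.73 for G6pdx of the pentose phosphate route and 0.67 for the heme oxygenase gene Hmox1, which was 0.40 with the trend removed. The gene that was lower was Slc7a11, the cystine transporter, at -0.40, and it became 1.15 with the trend removed. Me1, malic enzyme, was at 0.04 (adjusted p = 0.306). Slc7a11 and Me1 were named after their values were seen.

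The electron donors and heme synthesis genes that P450 enzymes need were 8, of which 6 were higher and 2 neither, beside 33.8% of all genes higher (median 0.36, or 0.24 with the trend removed). Alas1, the rate-limiting enzyme of heme synthesis, rose from 30.4 ± 1.55 to 56.1 ± 5.46 CPM (log2 fold change 0.88 ± 0.08), and Cyb5a, the cytochrome b5 that donates electrons to P450 enzymes, rose by 0.74. In the UGT1 and glucuronidation list 5 of 11 genes were tested, with 2 higher, 1 lower and 2 neither (median -0.04, or 0.27 with the trend removed). Ugt1a6b rose by 1.43 and the nucleotide sugar transporter gene Slc35d1 by 0.69, and Ugp2, which makes UDP-glucose, went from -0.68 to 0.27 when the trend was removed. Enzymes that make or consume tryptophan-derived ligands were mostly too low to be tested, with 3 of 11 tested and 1 higher, Afmid, at 0.41 (adjusted p = 0.00885 by edgeR), a gene named after its value was seen. The call of Afmid was kept in 10 of 15 alternatives and lost with DESeq2, with the trend removed (0.21), with or without the replicate block, and without shCtrl replicate 2 or shUSP9X replicate 2. Among the 8 nearest paralogs of battery genes, 7 were tested, 4 higher and 2 lower (median 0.37). Parp12, a relative of Tiparp, rose from 46.5 ± 1.03 to 145 ± 0.265 CPM, 1.65 ± 0.05 on the log2 scale (edgeR adjusted p = 1.9e-19), and Aldh3a2, the relative of Aldh3a1, was at 0.03 (adjusted p = 0.600) and was named after its value was seen.

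**Figure D4:**
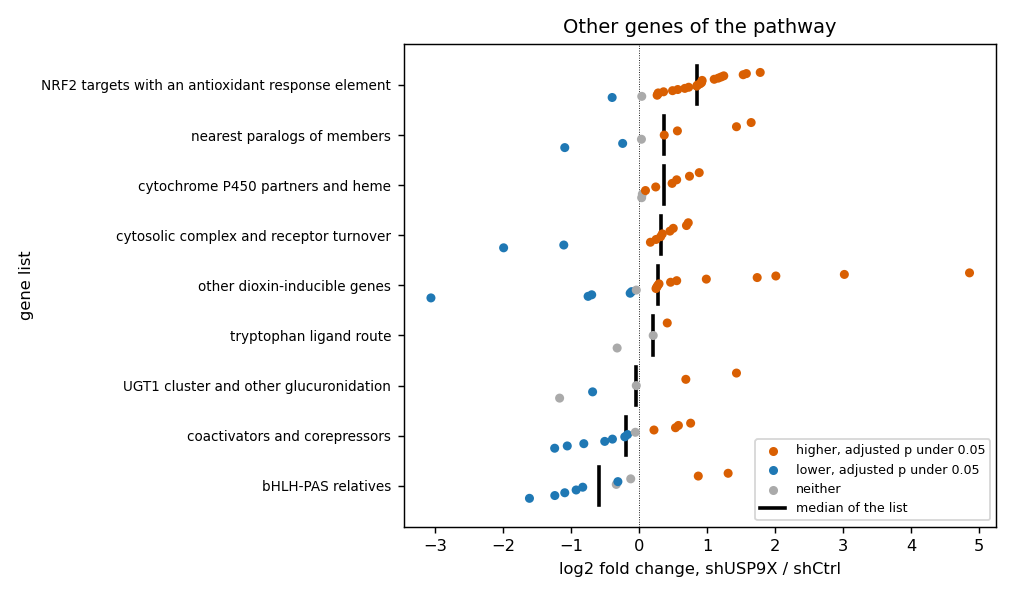
Log2 fold change (shUSP9X over shCtrl) of each tested gene in the 9 pathway lists, ordered by the list median (black bar), with orange for genes higher and blue for genes lower at an edgeR adjusted p under 0.05 and grey for the rest. The NRF2 target list has 21 of 23 genes in orange, and the list of basic helix-loop-helix PAS relatives has the lowest median, -0.58. The median of the coactivator and corepressor list, -0.19 here, became 0.48 after removal of that trend on GC content and length.

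Genes whose profile over the 4 libraries was most like that of Cyp1a1 and of Tiparp were found by Euclidean distance of centred log2 CPM among genes of similar mean level. Of 953 candidates the nearest to Cyp1a1 were Pigz at a distance of 1.01 (counts of 0, 1, 49 and 43), the nucleic acid sensor gene Zbp1 at 1.06 (3, 4, 140 and 122) and the macrophage marker Adgre1 at 1.21 (0, 0, 58 and 59). All of them were at or near 0 in the shCtrl libraries. Of 4320 candidates the nearest to Tiparp were Echdc1, Pakap and Syt14, at distances of 0.0226, 0.0280 and 0.0341. With 4 libraries in 2 groups, closeness says little more than that the group difference is of the same size.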

How the data were processed

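RNA from 2 shCtrl and 2 shUSP9X libraries of ID8 cells was compared, grouped by the labels. The submitters' processing notes name fastp 0.18.0, Bowtie2 2.2.8, HISAT2, StringTie 1.3.1 and RSEM, and the study's methods give the mouse genome GRCm38. Per the labels, each library has its own estimated count for every gene, which the authors deposited without normalization, and 6.4% to 6.69% of these were not whole numbers. The authors also deposited FPKM values, scaled for transcript length and library size.

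The counts were rounded, although the test had been planned for whole counts, filtered with filterByExpr, scaled by TMM (factors 0.99 to 1.01) and tested over 11448 genes in R 4.3.3 (edgeR 4.0.16, quasi-likelihood test), with Benjamini-Hochberg adjustment, no covariate and a common biological coefficient of variation of 0.0352. CPM are TMM-scaled. The members, lists and rules were chosen with earlier results of these data known. Named list genes passed an adjusted p of 0.05 and a fold of 1.5, at most the 3 highest and 3 lowest per list where more than 6 did, and marker genes and other names were chosen after their values were seen. Some list genes are not reported here by name. GC content, length and coordinates came from GENCODE M21 (GRCm38), which held 21973 of 22063 identifiers, and promoter sequences from RefSeq GRCm38.p6. Of all genes 7085 were at 0 in every library. The floor in a library was 3 counts. No molecular identifiers are described, so floors cover counting error only.

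The 15 alternatives were DESeq2 1.42.0, 3 other scalings, 2 other count filters, limma-trend (limma 3.58.1) on log2(FPKM + 0.1) or log2(FPKM + 1) where FPKM averaged at least 1, the replicate number as a block, a loess offset (span 0.3) against GC content and length fitted per library, this offset together with the block, and leaving out each library in turn. For 99.8% of the tested genes both properties were known. DESeq2 tested 14960 genes, as did edgeR without the low-count filter, so its values differ from the main fit in both tool and filter. The procedures were tested on simulated data.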

Additional observations from a re-analysis of the deposited data

Results flagged for a closer look

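Liver transcripts appeared in shUSP9X replicate 2 above their level in the control libraries, in genes that no comparison of the battery used. Alb had 635 counts there and 0 in each of the other libraries, Ttr had 29 and 0, Apoa1 had 47 against at most 3, and Apob had 5 against at most 1. The 31 genes with at least 10 counts there and at most 1 in each other library, Alb and Ttr among them, held 0.00838% of that library's counts. A different set appeared in shCtrl replicate 2, where the melanocyte gene Tyrp1 had 113 counts and Dct 31, with 0 in each of the other libraries. Zfp968 had 156.82 counts in shCtrl replicate 1 alone. None of these genes belongs to the battery, and the log2 fold changes of the battery without either library are given as ranges below. The part of these transcripts in other values was not tested.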

How the results depend on the processing

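Across the 15 alternatives the direction of Ahr, Ahrr, Cyp1a1, Nqo1, Aldh3a1, Ugt1a6a and Cyp1b1 was the same wherever they had a value, whereas Tiparp turned from -0.85 to 0.0409 under the GC content and length offset and 0.0412 with the replicate block added, and Arnt ranged from -0.06 to 0.09. Ahrr had no value in either FPKM fit, and Cyp1a1 none at 10 counts in every library. Ranges with each library left out were 0.46 to 0.58 for Ahr, 1.06 to 1.61 for Ahrr, -0.48 to -0.42 for Cyp1b1, -0.91 to -0.77 for Tiparp, 2.58 to 2.64 for Nqo1, 2.33 to 2.44 for Aldh3a1, 1.06 to 1.17 for Ugt1a6a and 4.43 to 9.65 for Cyp1a1, the last resting on a control without a count. Cyp1a1 was 1.56 on log2(FPKM + 1) and 3.96 on log2(FPKM + 0.1), where the pseudocount compresses low genes. Genes changed numbered 7707, with a range of 6165 to 7821, and 6771 to 7568 with a library left out. Genes past the fold cutoff numbered 3376, with a range of 2365 to 3602, and those lower fell in number from 2143 to 1337 with the offset. Deviations of the replicate 1 libraries from their group means correlated at -0.0453 across genes, which cannot tell whether the labels' replicate numbers pair the libraries. The replicate block gave 7665 genes changed and ended the call of Sim2 among the named genes. Of the lists, the coactivators went from 11 genes changed to 7 with the offset, alone or with the replicate block. The basic helix-loop-helix PAS relatives went from 8 to 4 with DESeq2 and 5 with either FPKM fit, and the nearest paralogs from 6 to 3 with each of these. Arnt2, Per3 and Sim2 had no value in either FPKM fit, and the other relatives called in the main fit stayed called there. DESeq2 changed the low-count filter as well as the tool. By edgeR without that filter the relatives numbered 7 and the paralogs 6. The tryptophan list went from 1 to 0 with the offset, with the block and offset and with DESeq2 (0 at an unadjusted p under 0.05 by each), and ranged from 0 to 1 with each library left out, being 0 by edgeR without shCtrl replicate 2 (1 unadjusted) and without shUSP9X replicate 2 (0 unadjusted). Where not stated, the cause was not tested. The NRF2 list had 21 genes higher in every alternative except 22 without shCtrl replicate 2, but not the same genes: with the offset Akr1b8 and Ephx1 were no longer called (0.01 each) and Slc7a11 and Me1 were called higher (1.15 and 0.24). Of 81 list genes called, 52 kept call and direction in all 15 alternatives. Low counts limit Ahrr and Cyp1a1, and 2 libraries a group limit all errors.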

Other observations

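Some markers of other cell types differed between the groups. Of 6 fibroblast markers 3 were tested and all were lower in shUSP9X cells by edgeR, beside 33.6% of all genes tested. Pdgfra, a receptor tyrosine kinase of mesenchymal cells, had counts of 272 and 215 against 34 and 39 (log2 fold change -2.87), Col1a1, a collagen chain, 1174 and 1245 against 452 and 362 (-1.72), and Dcn, a matrix proteoglycan, 2919 and 2634 against 2434 and 2032 (-0.46, or -0.18 under the GC content and length offset). Pdgfrb, Lum and Thy1 were at 0 in every library. Among ovarian surface epithelium and mesothelium markers, the keratin genes Krt8 and Krt18 rose by 0.92 and 0.64, whereas Wt1 and Msln fell by 0.52 and 0.47. Muc16, which encodes the ovarian tumour antigen CA125, had counts of 33 and 43 against 1 and 0. Of the endothelial markers, Tek had counts of 172 and 165 against 109 and 105 (log2 fold change -0.80), Pecam1 had 9 and 19 against 19 and 13 (0.04, not called), and Cdh5, Kdr and Emcn were at 0 in every library. These genes were named after their values were seen.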
